A study of Mus musculus with 20 samples.

Results

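The change in DNA methylation between birth and weaning age was followed within neurons of the mouse hypothalamus. The comparison rests on 10 libraries, 5 from neurons at postnatal day 0 (P0) and 5 from neurons at postnatal day 21 (P21), out of 20 libraries in the series. They were chosen by their labels alone, and the other 10, from non-neuronal nuclei of the same ages, did not enter the test. All animals were inbred C57BL/6 males, and the labels name no treatment or engineered allele. Nuclei were sorted by fluorescence for NeuN, a nuclear protein of neurons, and 2 hypothalami were pooled per library, which is thus the mean of a pair of animals and of all neuron types that carry NeuN. Methylation was read by methylation-specific amplification with sequencing. Genomic DNA is first cut with SmaI, which cuts CCCGGG only where the central CpG is unmethylated, and then with XmaI, which cuts the remaining, methylated sites. Adaptors join the XmaI ends, so an interval between neighbouring sites is amplified and counted when the sites at both ends are methylated. The level of an interval is given as CPM, its reads relative to the TMM-scaled size of the library, and is relative: more CPM at an interval means more methylation there compared with the other intervals, and a gain or loss shared by the whole genome would not be seen. Positions are on the mm9 assembly. An annotation of that assembly was not used here, so intervals are given by position without a gene, and the sorted cell type was not checked against marker genes.

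Methylation of cytosine in CpG is copied at cell division by a maintenance methyltransferase and laid down anew by de novo methyltransferases, and TET enzymes start its removal by oxidising it. Mature neurons no longer divide. The first weeks after birth are, in the rodent brain, a time of synapse formation and of rising de novo methylation in neurons. The enzymes used here report CpG methylation within CCCGGG and nothing of methylation outside CpG.

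The libraries held 6238989 to 7656343 reads at P0 and 7810593 to 9998110 at P21. Of 50782 listed intervals, 24998 passed the filter on low counts, with 99.3% to 99.49% of all reads per library. Replicates correlated at r = 0.967 to 0.979 at P0 and 0.979 to 0.983 at P21 across intervals, and libraries of different ages at 0.889 to 0.914. The first principal component, with 68.6% of the variance, parted the ages. The second, with 8.13%, parted P0 replicates 1 to 3 (16.8 to 33.7) from P0 replicates 4 and 5 (-44.2 and -36.5), and P21 libraries lay between (-12 to 9.96). P21 replicate 2, the deepest library, also stood apart in the length of the intervals it covered, as described below. The main counts are given with and without these libraries.

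The relative methylation of neuronal DNA changed in both directions between P0 and P21, and rises outnumbered falls among the larger changes. In sorted nuclei, a change in the mix of neuron types and a change within a type cannot be told apart. Of the tested intervals, 14975 changed (59.9%; edgeR quasi-likelihood test, Benjamini-Hochberg adjusted p under 0.05): 7788 rose (31.2%) and 7187 fell (28.8%). The groups of 5 did not overlap at 10867 intervals (43.5%), with P21 above P0 at 5723 (22.9%) and below it at 5144 (20.6%). The rising share of calls was 52% in all, 64.1% at 2-fold or more, 78.9% at 4-fold, 81.6% at 8-fold, 82.6% at 16-fold and 82.1% at 32-fold or more. At 2-fold or more 3422 intervals rose (13.7%) and 1915 fell (7.66%), at 4-fold or more 1015 rose and 272 fell, at 8-fold or more the counts were 305 and 69, and at 32-fold or more 32 and 7. The typical change was small: the median size over all tested intervals was 0.50 on the log2 scale, with an interquartile range of 0.231 to 0.904, and the median standard error was 0.171. Without P0 replicates 4 and 5, 7435 intervals rose and 6792 fell, and without P0 replicates 1 to 3, 6778 and 6557. Leaving out P21 replicate 2 gave 7665 and 7125. The balance depended on scaling. TMM factors were 0.903 to 0.942 at P0 and 1.052 to 1.169 at P21, and with library totals alone, which moved the median change of all intervals from 0.03 to 0.27, 69.9% of calls rose instead of 52%. At 2-fold or more, 80.5% rose with totals alone and 64.1% with TMM. Without a filter on low counts, 4430 intervals rose and 4525 fell by 2-fold or more.

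**Figure D1:**
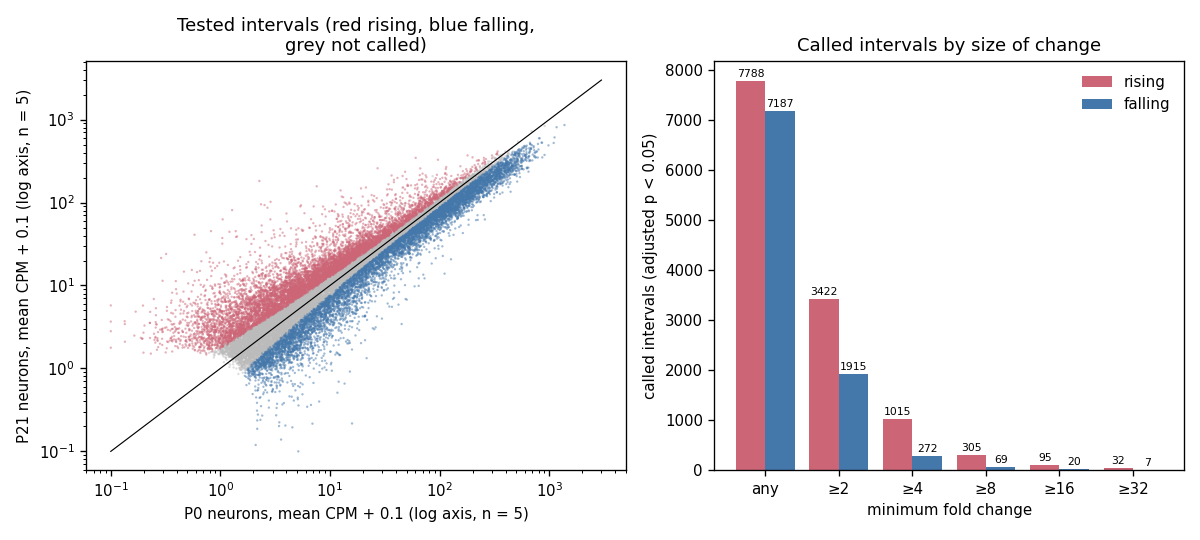
Left, mean CPM + 0.1 of each of the 24998 tested intervals in P0 neurons (x) and P21 neurons (y), both on log axes, with the line of equal level; red intervals rose, blue fell and grey were not called. Right, called intervals by minimum fold change; 3422 rose and 1915 fell by 2-fold or more, and at 8-fold or more 305 rose against 69 that fell.

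The reads of a library shifted accordingly. Intervals called as rising held 10.8% to 11.3% of all reads in the P0 libraries and 21.2% to 22.9% in the P21 libraries, and intervals called as falling held 62.8% to 63.9% and 46.8% to 49.6%. These shares describe the calls and are no separate test. The most covered intervals took a smaller share of the reads at P21. The 1% most covered intervals took 21.1, 22.2, 22.6, 21.9 and 22.1% of reads in P0 replicates 1 to 5 and 17.9, 16.1, 18.2, 17.9 and 17.9% in P21 replicates 1 to 5 (mean difference -4.39 percentage points; two-sided exact permutation adjusted p = 0.00794 over 5 library-level measures, where 0.00794 is the smallest p that 5 against 5 allow). No P21 library reached the lowest P0 library. At equal depth the number of intervals with any read fell from 35190 ± 375 at P0 to 34070 ± 428 at P21 (SD, n = 5 each; same exact permutation adjusted p). Without thinning to equal depth the difference was -526 intervals, with an exact permutation adjusted p = 0.159.

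The steepest gains started from almost no reads at birth. The gains and losses named first were picked for size among intervals with above-median level whose 5 P0 and 5 P21 values did not overlap, so their separation was a condition of the choice. Choosing by fold change and level also favours a low P0 level in rises and a high one in falls. Within that set the largest rise was at chr5:118885423-118886918, 1495 bp long. It held 0, 0.14, 0, 0.34 and 0.45 CPM in P0 replicates 1 to 5 and 22.7, 23.1, 20.5, 18.1 and 22.3 CPM in P21 replicates 1 to 5, which is 6.68 ± 0.30 (SE) in log2 fold change (edgeR adjusted p = 2.99e-17). Of the P0 libraries 2 held no read there, and all P21 libraries held 18.1 CPM or more. Without P0 replicates 4 and 5 the change was 8.26, and without P0 replicates 1 to 3 it was 5.68, since few reads set the P0 level. The interval chr11:74980722-74981570 went from 0.17, 0.43, 0.34, 0 and 0.15 CPM to 24.8, 18.9, 27.9, 22.3 and 25.6 CPM (6.63 ± 0.28 on the log2 scale). Only 7 reads were counted there in all P0 libraries together and 1159 in the P21 libraries, and without P0 replicates 1 to 3 the change was 7.98. At chr3:84469581-84470384 the P0 libraries held 1.19, 2.02, 3.27, 2.40 and 1.96 CPM and the P21 libraries 183, 156, 192, 185 and 194 CPM, a change of 6.39 ± 0.14 (SE; edgeR adjusted p = 7.81e-24), the smallest adjusted p of all rising intervals. P21 replicate 2 was the lowest of its group there, still far above P0.

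Other rises of similar size had few reads at P0 too. At chr19:7000511-7001501 P0 libraries held 1.86, 0.87, 1.03, 1.37 and 0.75 CPM and P21 libraries 84.0, 85.9, 82.5, 71.8 and 80.7 CPM. At chr8:35873055-35873747 they held 1.86, 1.30, 0, 1.55 and 0 CPM at P0 and 37.9, 34.4, 37.2, 34.8 and 42.1 CPM at P21 (log2 fold change 5.30 ± 0.33). The P0 values were scattered between no read and 1.86 CPM, while the P21 values differed little among themselves. At chr2:116802370-116803045 the P0 libraries held 2.54, 1.73, 2.41, 3.09 and 4.07 CPM and the P21 libraries 107, 88.3, 102, 119.9 and 95.0 CPM. The interval chr17:14830793-14831318 went from 1.19, 1.59, 1.03, 1.55 and 1.06 CPM to 44.6, 42.9, 45.9, 48.0 and 43.9 CPM, and chr2:37632042-37633422 from 2.88, 1.16, 3.45, 2.92 and 2.56 CPM to 86.2, 101, 80.3, 84.8 and 80.2 CPM. Among the 15 largest rises of that set, the smallest log2 fold change was 5.08 ± 0.15, and removing the dependence on interval length (described below) left the 15 changes between 4.83 and 6.87. The interval chr17:27195310-27195775 began from a measurable level, 5.25, 7.95, 8.27, 6.52 and 9.35 CPM, and reached 168, 139, 164, 161 and 153 CPM, so that its 20.8-fold rise was among the best supported (log2 change 4.38 ± 0.12; edgeR adjusted p = 4.03e-22).

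The 305 intervals that rose by 8-fold or more had a median of 0.571 CPM at P0 and 7.92 CPM at P21. All 305 had groups that did not overlap, against 22.9% of all tested intervals with P21 above P0. The choice by adjusted p and size favours this. Their P0 means ran up to 27.1 CPM and their P21 means up to 259 CPM. All 305 were also called as rising after removal of the length trend, in a fit to the same counts. The filter asked for about 1.29 CPM in at least 5 libraries, so an interval below that at P0 could pass through P21 alone. Of the rising intervals, 4 had no read in any P0 library. At chr11:44646246-44646899 the P21 libraries held 4.47, 3.94, 4.87, 6.31 and 8.65 CPM (272 reads in all). Their mean was at least 58.5-fold above the level of 0.0965 CPM that 3 reads over all P0 libraries would give. At chr2:173066602-173068584 they held 2.30, 4.62, 3.11, 4.73 and 3.07 CPM, with a mean at least 36.9-fold above that level. At chr18:81177217-81178058 they held 1.93, 2.14, 2.63, 3.68 and 3.17 CPM, with a mean at least 28.1-fold above it. These bounds cover counting error only, since reads carry no molecular identifiers.

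**Figure D2:**
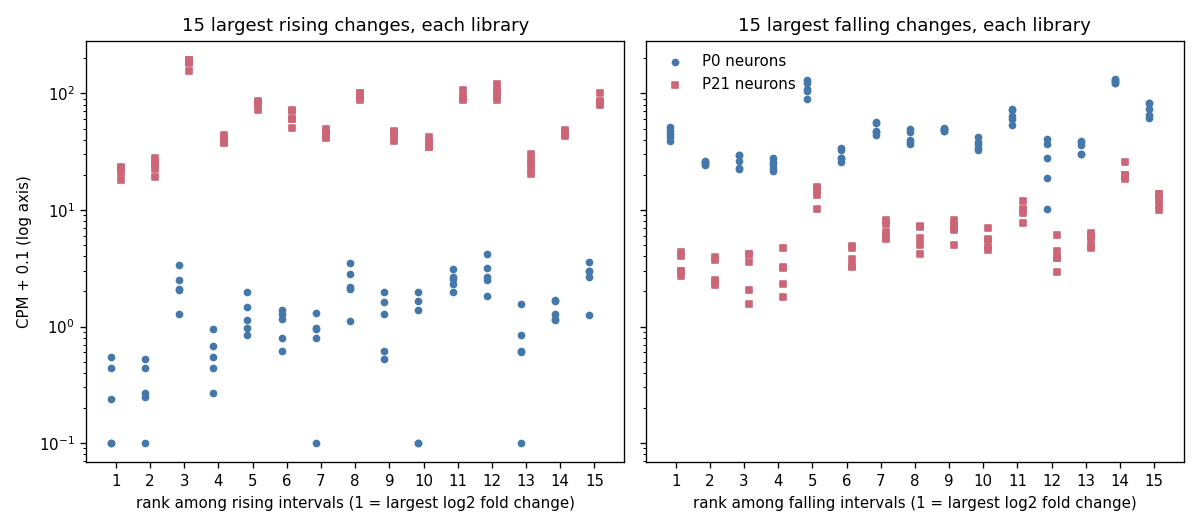
CPM + 0.1 on a log axis in each P0 library (blue circles) and P21 library (red squares) for the 15 largest rises (left) and the 15 largest falls (right) among called intervals with above-median level and groups that do not overlap, ordered by log2 fold change. The rises began at or below 4.07 CPM in every P0 library, whereas the falls began at 10.1 CPM or more, a contrast that the choice by fold change and level favours.

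Losses chosen in the same way were smaller in fold than these gains and ended at a low but measurable level. The largest of them was chr1:94745671-94746930, 1259 bp long, with 44.4, 51.6, 47.9, 39.3 and 41.9 CPM in the P0 libraries and 4.23, 2.91, 2.92, 2.63 and 3.94 CPM in the P21 libraries, which is -3.77 ± 0.14 (SE) in log2 fold change (edgeR adjusted p = 4.25e-19). No P21 library was without reads. At chr15:98001052-98001467 the P0 libraries were almost identical, at 25.6, 24.4, 24.5, 26.1 and 25.9 CPM, and the P21 libraries held 2.17, 3.59, 2.43, 2.31 and 3.83 CPM (-3.12 ± 0.16 on the log2 scale). The interval chr4:117806530-117807034 went from 25.8, 21.7, 27.6, 24.7 and 22.9 CPM to 1.69, 3.08, 2.24, 3.15 and 4.60 CPM. The P21 values of all 3 intervals lay between 1.69 and 4.60 CPM.

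The loss with the smallest adjusted p was at a better covered interval, chr17:25072042-25072426. It fell from 127, 123, 130.1, 132 and 123 CPM to 19.7, 19.9, 19.1, 25.9 and 18.5 CPM (log2 fold change -2.62 ± 0.09, SE; edgeR adjusted p = 3e-19), with P21 replicate 4 the highest of its group. At chr11:95934268-95934949 the P0 libraries held 230.1, 261, 273, 268 and 262 CPM and the P21 libraries 62.7, 56.0, 65.6, 63.8 and 64.5 CPM (-2.05 ± 0.08). The intervals chr15:83934698-83935341 and chr15:83935341-83935992 share a cut site and fell together. The first of them went from 123, 130.0, 109.7, 88.8 and 106 CPM to 14.6, 10.1, 13.3, 15.8 and 15.1 CPM (-3.02 ± 0.12), and the second changed by -2.91 ± 0.12. At chr4:101179978-101180667 the fall was from 48.0, 47.3, 50.0, 49.6 and 49.5 CPM to 7.37, 8.04, 4.87, 7.04 and 6.57 CPM (-2.85 ± 0.12). One of the 15 falls chosen this way was less even. The interval chr5:109980032-109982560, 2528 bp long, held 18.8, 10.1, 27.6, 40.4 and 36.6 CPM in P0 replicates 1 to 5 and 3.74, 4.36, 3.80, 2.84 and 6.02 CPM at P21 (-2.68 ± 0.40; edgeR adjusted p = 0.000273). Its level was lower in P0 replicates 1 and 2 than in replicates 4 and 5, the libraries that the second principal component set apart. Without P0 replicates 4 and 5 its change was -2.20, and without P0 replicates 1 to 3 it was -3.21.

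The 69 intervals that fell by 8-fold or more had a median of 5.51 CPM at P0 and 0.444 CPM at P21. Of these, 68 had groups that did not overlap, against 20.6% of all tested intervals with P21 below P0. The choice by adjusted p and size favours this too. One called interval had no read left at P21. At chr7:25789849-25790652 the P0 libraries held 4.74, 4.77, 5.34, 4.29 and 6.03 CPM (157 reads in all). Their mean was at least 82.1-fold above the 0.0614 CPM that 3 reads over all P21 libraries would give.

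Strongly covered intervals also changed by 2-fold or more. Among rises of 2-fold or more, the most covered was chr7:147144202-147145195, which went from 185, 198, 185, 156 and 176 CPM to 399.7, 368, 384, 307 and 393 CPM (1.04 ± 0.08). The interval chr18:78651185-78651820 rose further, from 51.5, 49.4, 72.9, 63.5 and 65.0 CPM to 344, 276, 371, 384 and 355 CPM (2.52 ± 0.11). At chr19:56265176-56265987 the rise was from 93.0, 90.5, 106, 99.6 and 93.7 CPM to 355, 301, 337, 313 and 335 CPM (1.76 ± 0.08). All 3 were already well above the median interval at birth. In the other direction, chr4:149986232-149987000 fell from 871, 999, 928, 861 and 883 CPM to 396, 305, 398.7, 373 and 403 CPM (-1.28 ± 0.08), and chr2:30898726-30899208 from 779.8, 775, 1022, 861 and 892 CPM to 372, 264, 373, 374 and 366 CPM (-1.31 ± 0.10). The groups of these 5 intervals did not overlap. They did at chr17:39981602-39983065, the most covered interval with a fall of 2-fold or more, where P0 libraries ranged widely, at 660.0, 1477, 1419.7, 947 and 977 CPM, against 392, 538, 697, 486 and 500.5 CPM at P21 (-1.07 ± 0.25; edgeR adjusted p = 0.00502).

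Few intervals were bounded to a nearly constant relative level. In all, 206 (0.824%) had a log2 fold change that lay within 0.2 of zero with 2 standard errors on either side. With a median standard error of 0.171, most intervals could not meet this bound even if unchanged. The share thus reflects precision and is no count of constant intervals. The most covered was chr2:36451118-36451542, with 500.0, 453, 448, 446 and 436 CPM at P0 and 506, 341, 529, 486 and 409 CPM at P21 (2 standard errors either side, -0.20 to 0.18). At chr2:27827000-27827727 this range was -0.18 to 0.13, and at chr12:50425969-50426693 it was -0.15 to 0.18. This constancy is relative to the scaling. With library totals alone the 3 changes were 0.22, 0.21 and 0.24, and with the length trend removed they were 0.20, 0.29 and 0.33, each then past the threshold.

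Touching intervals often changed in the same direction. Neighbouring intervals with a common CCCGGG need that site methylated in both, so they are not independent measurements. Among 6733 such pairs of tested intervals, 959 rose together, 1304 fell together and 420 went in opposite directions (33.6% in the same direction and 6.24% in opposite ones). Where the next tested interval lay more than 50000 bp away, 19.1% of 9294 pairs had the same direction and 15.8% opposite ones. Between these, pairs more than 2000 and up to 10000 bp apart had the same direction in 22.6% and opposite directions in 15.2%. Across touching pairs the log2 fold changes correlated at r = 0.59 (n = 6733 pairs, which share a site and all 10 libraries), and at 0.6 after removal of the length trend. The correlation was 0.46 at gaps of 1 to 500 bp (n = 291), 0.13 above 2000 and up to 10000 bp (n = 2433) and 0.036 beyond 50000 bp (n = 9294). Among touching pairs in which both changed by 2-fold or more, 351 rose together, 166 fell together and 24 were opposed.

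Stretches of 3 or more touching intervals that all changed in the same direction numbered 128 for rises and 194 for falls. With library totals alone they numbered 230 and 85, so which direction had more depended on the scaling. The rising ones held at most 5 intervals. The one with the largest changes spanned chr10:126961842-126968013, 5 intervals that held at most 2.46 CPM in any P0 library. Its central interval, chr10:126964608-126965533, went from 2.37, 2.46, 2.07, 2.23 and 2.26 CPM to 55.5, 49.7, 51.8, 49.0 and 58.1 CPM (4.52 ± 0.13). The next on one side, chr10:126965533-126965994, went from 1.53, 0.72, 0.52, 1.20 and 1.21 CPM to 13.8, 13.2, 12.8, 12.2 and 14.2 CPM. The outermost intervals moved by 3.52 ± 0.31 and 2.22 ± 0.42 on the log2 scale. Without P0 replicate 2, the change of chr10:126961842-126963029 was 4.12. In all 5 intervals the groups were apart.

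The second rising stretch, chr7:148649637-148653249, was graded. Its intervals held 75.3 ± 7.49, 16.3 ± 1.95, 3.39 ± 0.73, 4.17 ± 1.80 and 2.34 ± 0.51 CPM at P0 from the first cut site to the last (mean ± SD, n = 5), and 159 ± 27.0, 72.3 ± 11.0, 39.9 ± 5.01, 18.2 ± 1.21 and 5.85 ± 1.07 CPM at P21. The first interval was thus well covered at birth and the rise was largest in the third, at 3.55 ± 0.15 on the log2 scale, against 1.08 ± 0.11 in the first. The third stretch, chr5:141063770-141073464, rose by 0.34 to 0.74 per interval. After removal of the length trend, chr5:141067437-141069567 and chr5:141069567-141071217 changed by -0.05 and -0.08 instead, and chr5:141065347-141067437 missed the threshold (0.27).

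Among falling stretches, the longest, chr7:51787803-51796844, held 8 touching intervals, and each fell, by 0.40 to 1.59 on the log2 scale. Its most covered interval, chr7:51795061-51795844, went from 816, 879, 891, 699 and 712 CPM to 445, 389.6, 444, 449 and 457 CPM (-0.87 ± 0.08). The interval chr7:51791268-51794181, 2913 bp long, changed by -1.59 ± 0.39, and in it P0 replicates 4 and 5, at 39.0 and 32.7 CPM, lay above replicates 1 to 3, at 12.5, 10.4 and 20.5 CPM. Without P0 replicates 4 and 5 its change was -0.94, and without P0 replicates 1 to 3 it was -2.23. A stretch of 7 intervals, chr10:79872914-79884056, fell by 0.33 to 0.97. Its most covered interval, chr10:79878651-79879645, went from 491, 513, 468, 429 and 428 CPM to 240.4, 209.9, 245, 254 and 236 CPM. Both stretches kept negative changes in every interval after removal of the length trend (-0.19 to -1.29 and -0.45 to -0.93). With library totals alone, 1 interval of the first and 3 of the second no longer passed the threshold, with edgeR adjusted p = 0.187 at chr7:51788957-51791268 in the first and 0.317, 0.0821 and 0.526 at chr10:79872914-79874590, chr10:79881986-79882303 and chr10:79882303-79884056 in the second. In the second, chr10:79882303-79884056 also lost its call without P0 replicate 5 (edgeR adjusted p = 0.0838) and without P21 replicate 5 (0.0592). The same held without P0 replicates 4 and 5 (0.0868) and with all 20 libraries in the fit (0.0625). Without P0 replicates 1 to 3, chr10:79872914-79874590 lost its call (0.0888). A stretch of 5 intervals at chr10:126719939-126726400 fell by 0.54 to 1.38.

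**Figure D3:**
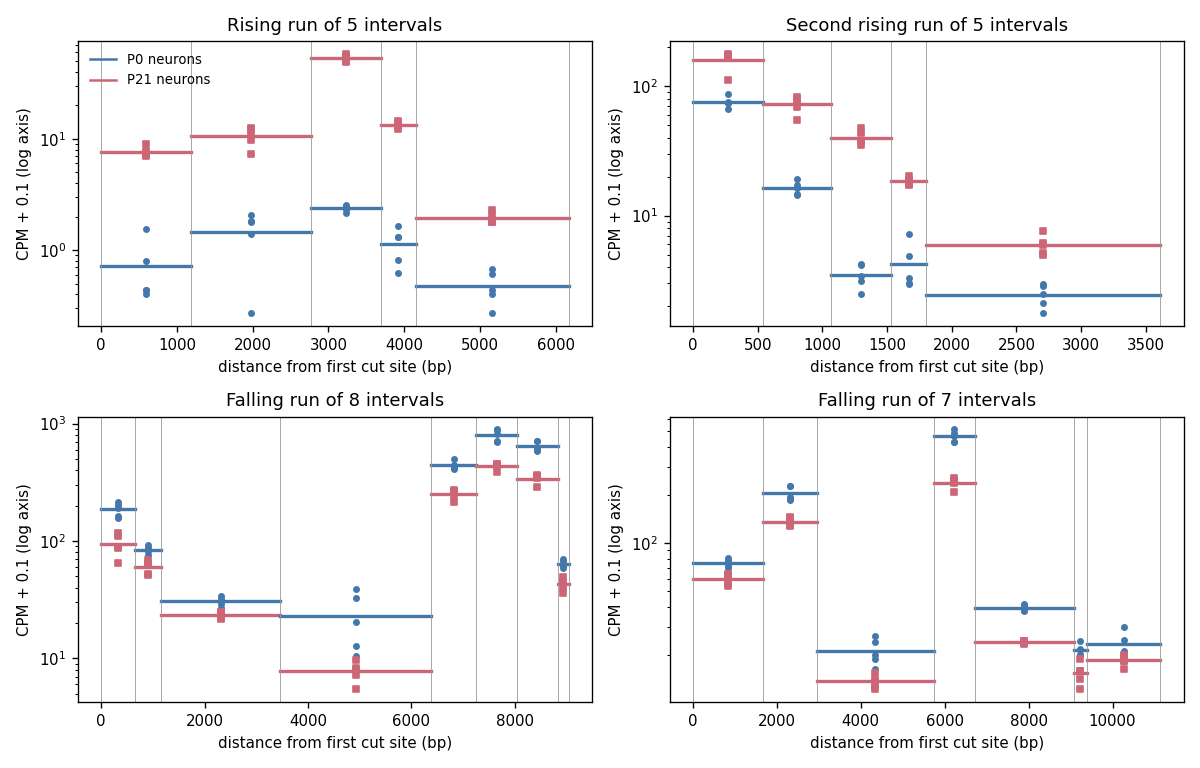
CPM + 0.1 on a log axis along 4 stretches of touching intervals, by distance in bp from the first cut site; bars span each interval at the group mean, points are the 5 libraries per age and grey lines are cut sites. The P21 mean lies above the P0 mean in all 10 intervals of the rising stretches and below it in all 15 of the falling ones.

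Where an interval lay in the genome went with the direction of its change. Tested intervals were put into 5 classes by how many listed intervals lay in the surrounding 1 Mb, a measure of how densely CCCGGG sites occur, which in mammalian genomes goes with high GC content and many genes. This split was made after the data were seen and is a description. In the sparsest class (1 to 17 intervals per Mb) 38.6% of 5340 intervals rose and 18.6% fell, and in the densest (66 to 170) 22.8% of 4914 rose and 40.3% fell. The 3 classes between followed in order, with rises of 36.3%, 30.5% and 26.7% and falls of 22.9%, 28.2% and 34.8%. Of all tested intervals 31.2% rose and 28.8% fell. Changes of 2-fold or more differed in the same direction: 17.1% of the sparsest class rose and 3.80% fell, against 9.63% and 11.8% in the densest.

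By the density pattern the libraries parted by age. The median deviation of the densest class from the sparsest (log2 CPM, relative to the mean of the 10 libraries) was 0.08, 0.18, 0.21, 0.24 and 0.25 in P0 replicates 1 to 5 and -0.21, -0.20, -0.26, -0.26 and -0.11 in P21 replicates 1 to 5. The ages did not overlap. Every P0 library was positive and every P21 library negative, signs that centring on the 10 libraries favours once the ages differ. The sparsest class took 16 ± 0.32% of all reads at P0 and 17.2 ± 0.34% at P21, and the densest 25.1 ± 0.21% and 23.3 ± 0.28% (SD, n = 5 each). The falling share was higher in the densest than in the sparsest class within all 7 classes of interval length, for example 31.5% against 7.99% at 1200 to below 1600 bp and 62.8% against 52.5% at 400 to below 800 bp. It was also higher within all 5 classes of level in P0 non-neurons. The rising share was lower in the densest class in 6 of the 7 length classes. At 400 to below 800 bp it was 19.6% against 17.1%, and 30.4% against 34.4% once the length trend was removed. That removal turned the class from 60 to below 200 bp instead, from 14.2% against 14.6% to 13.5% against 12.3%. With library totals alone the median changes were 0.49 in the sparsest and 0.04 in the densest class, against 0.26 and -0.20 with TMM, so the difference of -0.46 between the classes stayed while the sign in the densest class did not. Over all settings and omitted libraries that were run, this difference was -0.51 to -0.41.

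**Figure D4:**
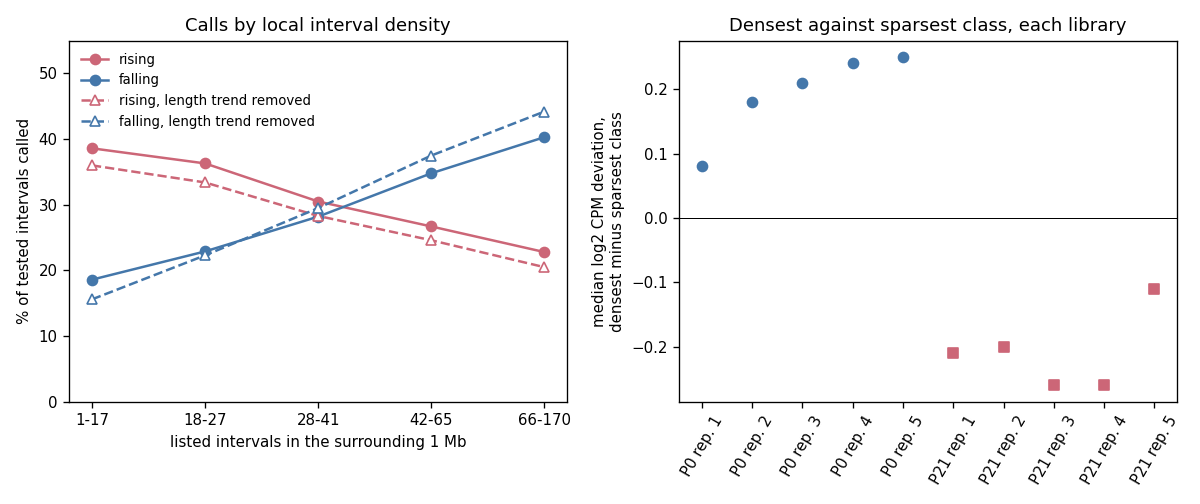
Left, percent of tested intervals that rose (red) or fell (blue) by the number of listed intervals in the surrounding 1 Mb, with filled circles for the main test and open triangles for the test with the length trend removed. Right, median log2 CPM deviation of the densest minus the sparsest class in each library; the 5 P0 libraries lie between 0.08 and 0.25 and the 5 P21 libraries between -0.26 and -0.11.

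The balance of rises and falls also varied among chromosomes. Rises outnumbered falls most clearly on chromosomes 1 (36.8% rose, 23.2% fell), 3 (36.1% and 23.7%) and 14 (36% and 21.8%), and among autosomes, falls exceeded rises by the most on chromosomes 5 (26.9% and 33.5%), 7 (27.5% and 33.1%) and 17 (27.7% and 33%). The share of all reads on chromosome 14 was 2.79, 2.74, 2.76, 2.78 and 2.78% in the P0 libraries and 2.99, 3.04, 3.00, 3.00 and 2.97% in the P21 libraries. That of chromosome 5 fell from 9.12, 9.18, 9.24, 9.18 and 9.22% to 8.74, 8.69, 8.75, 8.72 and 8.78%. In neither did the ages overlap (two-sided exact permutation adjusted p = 0.00926 over 21 chromosomes for each). The shares of 18 of the 21 chromosomes passed this test. Those of chromosomes 4 (exact permutation adjusted p = 0.294) and 9 (0.123) did not, and neither did chromosome X.

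On chromosome X, present once in males, a smaller share of intervals changed than on any autosome. Of its 501 tested intervals 27.3% rose and 19.6% fell, together 46.9%, whereas 56.3% to 61.3% of intervals changed on the autosomes. Intervals on X had fewer reads, with a median of 4.51 CPM at P0 against 7.85 to 12.1 on the autosomes, and the part of this in the lower share of calls was not tested. Its share of reads was 0.952, 0.893, 0.88, 0.914 and 0.914% at P0 and 0.945, 0.914, 0.958, 0.971 and 0.911% at P21, and the groups overlapped (two-sided exact permutation adjusted p = 0.142). On chromosome Y 11 intervals were tested. Its share of reads rose from 0.0102 ± 0.000441% to 0.0148 ± 0.00181% (SD, n = 5 each; exact permutation adjusted p = 0.00926), although 2 of its tested intervals rose and 3 fell.

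The change also went with the length of the interval. Intervals of 400 to below 800 bp took 46.5, 46, 47.4, 47.2 and 47.5% of reads in P0 replicates 1 to 5 and 42.7, 38.1, 43.2, 43.2 and 41.9% in P21 replicates 1 to 5. P21 replicate 2 was lowest, and no P21 library reached a P0 library. Intervals of 1600 to below 2000 bp took 2.94, 2.96, 2.88, 3.14 and 3.08% at P0 and 4.31, 5.09, 4.16, 4.16 and 4.57% at P21. Both differences passed a two-sided exact permutation test (adjusted p = 0.0111 over 7 length classes), as did those of the classes from 60, 200 and 1200 bp (each ends below the start of the next), while the class from 800 bp (0.365) and 2000 to 3000 bp (0.0926) did not. Without P21 replicate 2 the classes kept their sides of the threshold. The longest class parted the P0 libraries, with 3.62, 3.41 and 3.66% in replicates 1 to 3 against 4.42 and 4.38% in replicates 4 and 5.

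Calls followed these shares. Among 4450 tested intervals of 400 to below 800 bp 18.1% rose and 56.9% fell, with a median log2 fold change of -0.35. Among 2915 intervals of 1600 to below 2000 bp 56.2% rose and 12% fell, with a median of 0.51. After the length trend of each library was removed, these shares were 33.1% and 37.4%, and 31.3% and 28.7%. In all, 14559 intervals were then called, 11934 of them in the same direction as before and 22 in the opposite one. Of the 3422 rises of 2-fold or more, 3362 were called in the same direction with the trend removed and 2544 were still 2-fold or more. Of the 1915 such falls these counts were 1899 and 1498. Age and any difference in preparation between the P0 and P21 libraries cannot be told apart here.

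**Figure D5:**
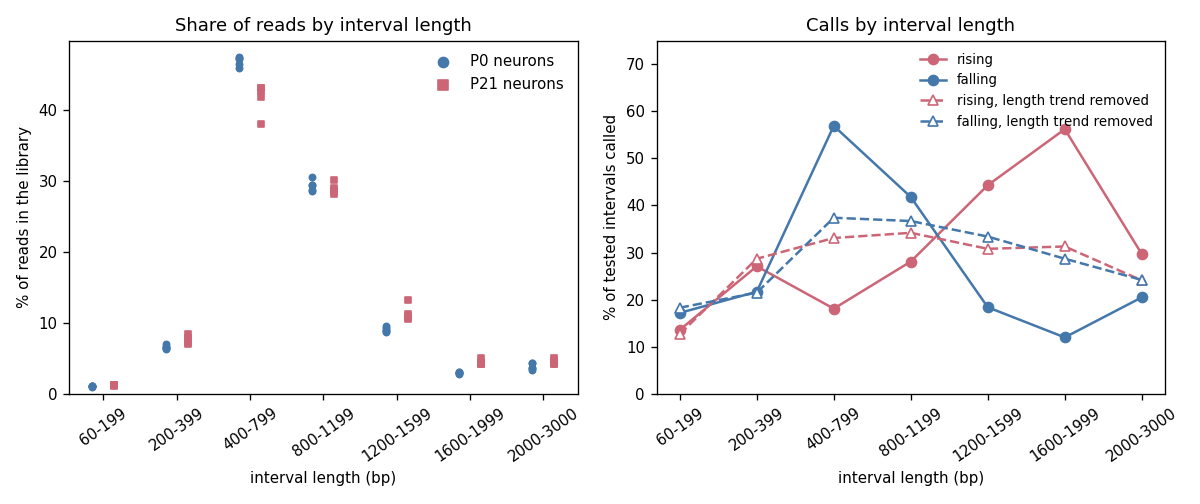
Left, percent of all reads in intervals of each length class (bp) in every P0 (blue circles) and P21 (red squares) library. Right, percent of tested intervals of each class that rose (red) or fell (blue), with filled circles for the main test and open triangles with the length trend removed; at 400 to below 800 bp 56.9% fell, and 37.4% with the trend removed.

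The level of an interval in P0 non-neurons, which do not enter the contrast, went with the direction of the change in neurons. For these classes the level was CPM by library totals, without TMM. In the lowest of 5 equal classes by that level (up to 2.63 CPM) 46.7% rose and 7.5% fell, and at 2-fold or more 37.9% were rises and 5.12% falls. In the highest class (above 50.3 CPM) 9.28% rose and 62.4% fell, and at 2-fold or more 0.64% were rises and 5.62% falls. The falling share grew through the classes between (19.1%, 24.1% and 30.6%). The rising share did not fall evenly (33.3%, 37% and 29.4%), and falls of 2-fold or more had no such order (11.4%, 10.4% and 5.8%). The highest class also held shorter intervals (median 748 bp against 1722 bp in the lowest), and with the length trend removed 20.6% of it rose and 51.7% fell. The lowest class then gave 43.5% and 9.32%. A low interval could pass the filter through a high level at P21, which favours rises in that class. Without the filter, and with the 5 classes formed over all intervals then tested, 333 intervals rose in the lowest class in place of 2336. That class is a different set of intervals, so these counts cannot show how far the filter raised the rising share.

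The named intervals were also read in non-neuronal nuclei. CPM of non-neurons were TMM-scaled over all 20 libraries and those of neurons over the 10 neuron libraries, so the levels are not on exactly the same scale. They were chosen for their change in neurons, which favours a larger change there, so the counts describe these intervals only. Over the 81 distinct intervals named here for a change in neurons, the neuronal change differed from the non-neuronal one at 52 (interaction of age and cell type, edgeR adjusted p under 0.05; 14.1% of all 26679 intervals tested with 20 libraries). Of the 39 named for a rise, 33 rose more in neurons than in non-neurons, and 30 were also called as rising in non-neurons (28.5% of all intervals were), none as falling. Of the 42 named for a fall, 16 fell more in neurons and 3 fell less, and 38 were also called as falling in non-neurons (25.8% of all). At chr5:118885423-118886918 non-neurons went from 1.19 ± 0.23 to 3.62 ± 0.50 CPM (SD, n = 5 each), and the neuronal log2 change exceeded theirs by 5.10 ± 0.50 (SE; edgeR adjusted p = 9.75e-11). At chr17:27195310-27195775 non-neurons went from 9.23 ± 2.34 to 19.3 ± 2.40 CPM, with an excess of 3.35 ± 0.20 in neurons. At chr15:79781325-79781893 a difference was not detected: neurons fell from 64.4 ± 8.01 to 9.80 ± 1.51 CPM and non-neurons fell from 67.6 ± 8.93 to 11.5 ± 2.12 CPM, with a difference of -0.12 ± 0.18 in log2 change (SE; edgeR adjusted p = 0.732). In the falling stretch of 8 intervals none of the differences between the cell types passed the threshold, and in the first rising stretch 4 of 5 did, by 2.10 to 2.61 on the log2 scale.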

How the data were processed

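Read counts per SmaI/XmaI interval were used as deposited by the authors; that they are raw counts follows from the values, whole numbers with a different total per library. Trimming with cutadapt, FastQC 0.10.1, Bowtie 0.12.9 and the build mm9 appear in the submitters' processing notes. For the counting itself, and for reads with several matches, the method is not stated in the sources used. The members, lists and tests were chosen with earlier results of these data known.

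Columns were matched by age, cell type letter and replicate number. No column lacked a sample. In edgeR 4.0.16 (R 4.3.3), filterByExpr (minimum count 10, minimum total 15) kept 24998 intervals over the 10 neuron libraries. After TMM scaling, P21 was tested against P0 with glmQLFit (robust) and glmQLFTest. The standard error is the size of the log2 fold change over the square root of F, and the biological coefficient of variation was 12.7%. In this text, a change of 2-fold or more is an adjusted p under 0.05 with that estimated size. The interaction was fitted to all 20 libraries, each taken as independent, without pairing neuronal with non-neuronal libraries. Library-level shares were compared by exact permutation. Named were, per direction, the 15 largest changes with separate groups and above-median level, the 5 smallest p, the 5 most covered changes of 2-fold or more, up to 3 intervals with 0 reads at either age and the 3 longest touching stretches, and further the 3 most covered constant intervals, chromosome X and the chromosomes with extreme shares; not every one is printed. Gene lists were not run, as intervals were not assigned to genes. In simulated counts for 24998 intervals, only 66 or 67 were changed at each size. Of these the test recovered 98.5% of 4-fold, 77.6% of 2-fold and 37.3% of 1.5-fold changes, with 12 unchanged intervals called. In the data far more intervals were called, and the adjustment is then less strict, so these shares are not the power there. Alternatives were scaling by RLE, by totals and by upper quartile, other filters, DESeq2 1.42.0, limma-voom (limma 3.58.1), a replicate block, thinning, removal of the length trend (lowess, span 0.2) and omitted libraries. The density classes were added after the data were seen. Plots used matplotlib 3.10.9.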

Additional observations from a re-analysis of the deposited data

Results flagged for a closer look

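Of 234 groups of 5 library values that were checked, 21 held a library far from the other 4; chance alone gives about 1 in 20. P21 replicate 2 accounted for 13 of them. It was low at chr3:84469581-84470384 (155.55 CPM), chr4:153527018-153527800 (332.4), chr2:30898726-30899208 (264.46), chr7:51795061-51795844 (389.64), chr7:51795844-51796633 (285.77), chr7:148649637-148650177 (111.91) and chr2:27827000-27827727 (365.25), intervals of 482 to 803 bp. It was high at chr9:20839609-20840797 (106.09 CPM) and chr5:141069567-141071217 (34.74), of 1188 and 1650 bp. It also had the lowest share of reads in the 1% most covered intervals (16.1%) and in intervals of 400 to below 800 bp (38.1%), and the highest in intervals of 1200 to below 1600 bp (13.2%) and on chromosome 16 (2.6%). Calls without it are given in the report. P21 replicate 4 was high at chr17:25072042-25072426 (25.87 CPM) and in the share of reads on chromosome 13 (3.37%). P0 replicate 1 was low at chr11:95934268-95934949 (230.11 CPM) and chr2:27827000-27827727 (391.59) and high at chr2:36451118-36451542 (500.03). P0 replicate 2 was high at chr2:92435874-92436783 (126.65 CPM) and had the longest read-weighted median length (769 bp), and P0 replicate 5 had the most intervals with a read at equal depth (35855).

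At 52 named intervals the change with age differed between neurons and non-neurons by the edgeR interaction test; values are log2 changes in neurons minus those in non-neurons. Among the largest rises the difference was 5.10 at chr5:118885423-118886918, 4.95 at chr11:74980722-74981570, 3.59 at chr3:84469581-84470384, 4.28 at chr15:101833492-101834550, 4.51 at chr19:7000511-7001501, 5.35 at chr9:96337839-96338589 and 4.93 at chr1:133868034-133868955. It was 5.47 at chr5:135729398-135730353, 1.96 at chr13:53330353-53331276, 3.32 at chr8:35873055-35873747, 2.04 at chr9:20839609-20840797, 2.71 at chr2:116802370-116803045, 2.93 at chr8:123029325-123030014, 3.85 at chr17:14830793-14831318, 3.12 at chr2:37632042-37633422 and 3.35 at chr17:27195310-27195775. Among the strongly covered rises it was 1.02 at chr7:147144202-147145195, 0.79 at chr19:56265176-56265987, 2.29 at chr18:78651185-78651820, 0.72 at chr2:92435874-92436783 and 0.95 at chr8:109135058-109135933. The fitted values of intervals with no read at P0 depend on a prior count and are no bounds: 7.44 at chr11:44646246-44646899, 6.15 at chr2:173066602-173068584 and 6.79 at chr18:81177217-81178058. The same holds for -6.64 at chr7:25789849-25790652, with no read at P21.

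Neurons fell more than non-neurons by -3.15 at chr1:94745671-94746930, -1.80 at chr15:98001052-98001467, -1.13 at chr8:107994743-107995280, -2.19 at chr15:83934698-83935341, -0.88 at chr17:25950380-25951300, -2.20 at chr15:83935341-83935992, -1.64 at chr4:109079886-109080321 and -0.83 at chr4:101179978-101180667. The difference was -1.95 at chr6:83389844-83390253, -0.99 at chr19:5093599-5094398, -0.53 at chr17:25072042-25072426, -1.41 at chr2:26485182-26486214, -1.02 at chr11:95934268-95934949, -0.49 at chr4:149986232-149987000 and -0.60 at chr2:30898726-30899208. In the falling stretch of 7 intervals, neurons fell less at chr10:79874590-79875873 (0.73), chr10:79875873-79878651 (0.86) and chr10:79882303-79884056 (0.72). In the rising stretches the difference was 2.61 at chr10:126961842-126963029, 2.10 at chr10:126963029-126964608, 2.37 at chr10:126964608-126965533, 2.40 at chr10:126965533-126965994, 0.59 at chr7:148649637-148650177, 1.32 at chr7:148650177-148650705, 2.37 at chr7:148650705-148651170, 2.05 at chr7:148651170-148651437 and 1.40 at chr7:148651437-148653249.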

How the results depend on the processing

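Across 11 scalings, filters, tools and model choices the number of called intervals ran from 13709 (at least 20 reads in at least 5 libraries) to 18222 (no filter), and from 14378 to 14790 when a library was left out. DESeq2 called 14782 and limma-voom 14883. With library totals alone 4658 intervals fell, 1142 by 2-fold or more, stretches of 3 or more rising intervals numbered 230 and falling ones 85. Without a filter 4525 intervals fell by 2-fold or more. That setting adds 17796 thinly covered intervals to the test and re-forms the classes by level in P0 non-neurons. The lowest of the new classes held 333 rises. Of touching pairs, 517 changed in the same direction and 24 in opposite ones when both had to change by 2-fold. Without thinning, the difference in intervals with a read was -526 (exact permutation adjusted p = 0.159); the cause was not tested. The direction turned at chr2:36451118-36451542 (0.22 with totals alone, 0.20 with the length trend removed) and chr2:27827000-27827727 (0.21 and 0.29), which are named as constant, and at chr5:141067437-141069567 (-0.05) and chr5:141069567-141071217 (-0.08) with the length trend removed. The interval chr5:141067437-141069567 also missed the threshold with DESeq2 (0.31; adjusted p = 0.0533) and when any 1 of 6 libraries was left out. Of the 84 named intervals, 6 kept their direction and lost their call under some setting. Deviations of P0 and P21 neuron libraries with the same replicate number correlated at -0.07 to 0.11, so no pairing of the ages by number was detected. Whether neuronal and non-neuronal libraries of the same age and number came from the same hypothalami was not checked. With a replicate block 14952 intervals were called, 7757 rising and 7195 falling. In the simulation, which changed few intervals, 37.3% of 1.5-fold changes were recovered, and this is not the power in these data.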

Other observations

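A single interval length recurred in the table. Of the 50782 listed intervals 5817 (11.5%) were exactly 156 bp long, and 2823 of them were followed by another whose start lay 208 bp further on. No read was counted in 3008 of them in any neuron library, and only 192 were tested, of which 21 rose and 11 fell (31.2% and 28.8% of all tested intervals did). Together these intervals took 0.0974% to 0.11% of reads in the P0 libraries and 0.126% to 0.16% in the P21 libraries, so the ages did not overlap. A repeat annotation was not used here, and the treatment of reads that map to several places is not stated in the sources used, so these levels may be incomplete. The group was chosen after the data were seen and was not tested.

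Some intervals below the filter on low counts were called too. Tested without that filter, 2672 of these 17796 intervals fell and 945 rose (edgeR adjusted p under 0.05). Over all 42794 intervals of the same fit 9506 fell and 8716 rose, a larger share in both directions. The falling ones had a median of 0.398 CPM at P0 and 0.0219 CPM at P21. Their median length was 470 bp. In all they are few reads, since all untested intervals together took 0.507% to 0.659% of reads at P0 and 0.531% to 0.704% at P21.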
